A study of Mus musculus with 31 samples.

Results

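The male F1 hybrid MOLfX13Rm had a MOL mother (MOLF/EiJ) and a 13R father (B10.F-H2pb1/(13R)J), and its map of meiotic DNA breaks was set against the maps of both inbred parents. The 3 lists held 44041 hotspots on the 19 autosomes, of 392225 in the 26 lists of the whole series. MOLfX13Rm had 15606 of them, MOL 14585 and 13R 13850. A hotspot was counted as found in another list when the centres of both intervals lay less than 400 bp apart, and each hybrid hotspot was then put in 1 of 4 origin classes: at a MOL hotspot alone, at a 13R hotspot alone, at both or at neither. Breaks were mapped in testis that had been obtained frozen, by DMC1 SSDS, a method that pulls down the recombinase DMC1 and sequences the single-stranded DNA it coats beside a break. The other strains named below were B6 (C57Bl/6J), C3H (C3H/HeJ), CAST (CAST/EiJ) and PWD (PWD/PhJ), and a cross name gives the mother first, with f, and then the father, with m. The list of a Prdm9 knockout, labelled Prdm9-/-, was also compared, and its strain background is not given here. The labels name no treatment. The sources used here do not give the Prdm9 alleles of the strains, the animals' ages or whether animals were pooled. With 1 library for each genotype, values have no replicate error, differences have no replicate check, and intervals are exact Clopper-Pearson intervals at the 95% level that cover counting error only.

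Most mouse hotspots are placed by PRDM9, a zinc-finger histone methyltransferase of early meiosis that binds DNA, marks the nucleosomes beside it and so sets where SPO11 cuts. The zinc fingers vary between strains, and a hybrid that carries different alleles makes both proteins in the same spermatocytes. MOLF/EiJ is a wild-derived strain of Japanese mice, and the name of 13R marks it as a B10 congenic line with a foreign H2 segment, on the chromosome that also holds Prdm9. A male has only the X of its mother, here that of MOL.

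In this hybrid the centres of 33 of its 15606 autosomal hotspots (0.211%, 0.146 to 0.297) lay in a window from 250 bases before to 50 bases after an annotated RefSeq start. There were 32851 windows for 27025 genes, so some genes had several starts. Such windows cover a small part of the genome, and the share expected from their length was not computed. One such window is shown for each class that has any, because the origin classes differ in which strains use the place and these are places where the reference sequence under the hotspot centre can be printed. Sequences are from RefSeq, build GRCm38.p6, read 5′ to 3′ on the gene's strand; capitals mark the bases within 20 of the hybrid hotspot's centre. No hotspot at both parents had its centre in such a window.
Olfr1223: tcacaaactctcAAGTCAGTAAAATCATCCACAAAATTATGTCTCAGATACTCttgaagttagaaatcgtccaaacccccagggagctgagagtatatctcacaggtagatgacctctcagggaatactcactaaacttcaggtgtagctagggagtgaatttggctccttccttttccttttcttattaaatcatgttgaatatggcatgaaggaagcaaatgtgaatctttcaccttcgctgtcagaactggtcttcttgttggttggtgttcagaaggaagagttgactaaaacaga
Sptbn1: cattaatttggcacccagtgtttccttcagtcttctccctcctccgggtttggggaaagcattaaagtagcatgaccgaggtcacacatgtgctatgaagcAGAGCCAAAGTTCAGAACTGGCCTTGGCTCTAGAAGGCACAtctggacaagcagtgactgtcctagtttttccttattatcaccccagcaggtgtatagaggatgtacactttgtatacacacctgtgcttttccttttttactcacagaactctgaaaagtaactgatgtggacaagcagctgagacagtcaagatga
Ear10: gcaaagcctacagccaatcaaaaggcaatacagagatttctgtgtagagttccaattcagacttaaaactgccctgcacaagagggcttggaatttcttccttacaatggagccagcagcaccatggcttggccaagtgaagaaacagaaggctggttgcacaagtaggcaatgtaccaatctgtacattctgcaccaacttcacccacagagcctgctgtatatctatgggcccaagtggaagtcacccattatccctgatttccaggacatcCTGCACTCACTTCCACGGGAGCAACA

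The first window, chr2:89151287-89151586 on the minus strand, starts the olfactory receptor gene Olfr1223 and belongs to a hotspot at a MOL hotspot alone. That place ranked 298 in MOL, 2662 in MOLfX13Rm, 1740 in MOLfXB6m, 2143 in B6fXMOLm and 1953 in C3HfXMOLm. It was not called in 13R or in any other cross with 13R. The second window, chr11:30219723-30220022 on the minus strand, lies at an annotated start of Sptbn1, which encodes a spectrin of the membrane skeleton. Its hotspot ranked 984 in 13R, 1771 in MOLfX13Rm and between 347 and 1553 in the 4 other crosses with 13R, and it was not called in MOL. The third window, chr14:43923547-43923846 on the minus strand, starts Ear10, a gene of the eosinophil-associated ribonuclease family. Its hotspot ranked 52 in the hybrid and was called in neither parent, yet ranked 108 in MOLfXB6m, 189 in B6fXMOLm, 1269 in C3HfXMOLm and 4723 in PWDfX13Rm. That family has near-identical gene copies, and the sources used here do not say how reads from copies were placed. The capitals of Ear10 run to the window's end, since the centre lies close to it.

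The hybrid used hotspots of both parents, with more from 13R. Of its hotspots, 7763 (49.7%, 49.0 to 50.5) lay at a 13R hotspot alone and 5078 (32.5%, 31.8 to 33.3) at a MOL hotspot alone. A further 125 (0.801%, 0.667 to 0.954) lay at both, and 2640 (16.9%, 16.3 to 17.5) at neither. When a match required both intervals to overlap by 50%, 28.9% lay at neither, and within the strongest 5000 hotspots of each list 26.1% did. Among hotspots of a single parent, 60.5% (59.6 to 61.3) were thus of 13R by number. By deposited strength, a score per hotspot that was used only within a list, 13R hotspots held 67.2% of the summed strength of single-parent hotspots. Over all classes the strength was divided into 54.8% at 13R alone, 26.8% at MOL alone, 1.03% at both and 17.4% at neither. Hotspots at both parents had the highest median percentile of strength within the hybrid, 67.5, against 54.7 for 13R alone, 47.0 for neither and 44.0 for MOL alone.

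**Figure D1:**
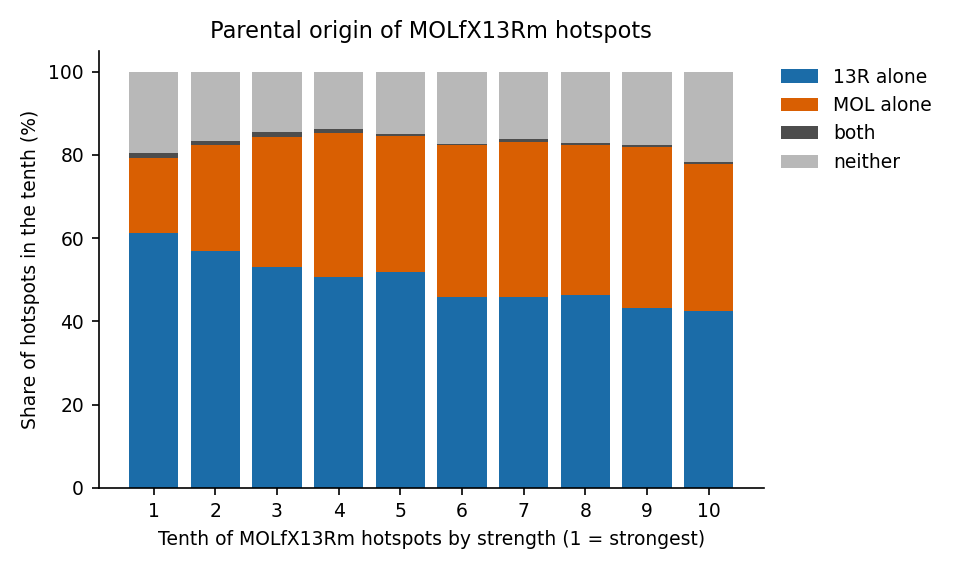
Share of MOLfX13Rm hotspots (y axis, %) at a 13R hotspot alone, a MOL hotspot alone, both or neither, in 10 groups of the 15606 autosomal hotspots by strength (x axis, 1 = strongest). The share at 13R alone was 61.2% in the strongest group and 42.6% in the weakest, and the share at MOL alone was 18% and 35.3%.

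The imbalance was larger among strong hotspots. In the strongest decile of the hybrid, 955 of 1561 hotspots lay at 13R alone (61.2%, 58.7 to 63.6) and 281 at MOL alone (18%; 16.1 to 20), while in the weakest decile the shares were 42.6% and 35.3%. Of the strongest 1000, 633 lay at 13R alone, 164 at MOL alone, 11 at both and 192 at neither. Among the 797 of these at a single parent, 13R had 79.4% (76.4 to 82.2). The strongest 100 comprised 59 at 13R alone, 11 at MOL alone, 1 at both and 29 at neither. The strongest hotspot of all lay inside Dach1, a transcription factor gene, on chromosome 14 (97834001 to 97838442), where 13R ranked 27. The hotspot ranked 4 lay 395545 bp from Efnb2, an ephrin ligand gene, where 13R ranked 8. The hotspot ranked 8 lay inside Cd274, which encodes the immune checkpoint ligand PD-L1, and 13R ranked 224 there. None of these 3 places was called in MOL. A hotspot inside or near a gene is given as a position, with no measure of that gene's expression.

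Which MOL hotspots stayed followed their strength in MOL. Of the 14585 MOL hotspots, 5203 (35.7%, 34.9 to 36.5) were found in MOLfX13Rm, and they held 62.8% of the summed MOL strength. Within the strongest 5000 hotspots of each list, the share of MOL hotspots found was 21.0%. The share found was 97.5% (96.5 to 98.2) in the strongest MOL decile, 89.4% in the second, 67.9% in the third, 40.1% in the fourth and 24.9% in the fifth. It was 12.2% in the sixth decile and 4.53% (3.52 to 5.72) in the weakest. MOL hotspots that were found had a median percentile of 81.0 in MOL and a median width of 3328 bp; those not found had a median percentile of 34.1 and a width of 1766 bp. The length of the hybrid's list sets how weak a hotspot can be and still be found, and the read depth behind that length is unknown.

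The 13R hotspots were found further down their own list. Of 13850, 7888 (57%; 56.1 to 57.8) were found, with 77.9% of the 13R strength. The share was 98.9% in the strongest 13R decile, 96.8% in the third, 89.9% in the fourth, 71.8% in the fifth, 44.4% in the sixth and 7.87% in the weakest. In the fourth decile, 1245 of 1385 hotspots of 13R and 585 of 1458 of MOL were found, with intervals of 88.2 to 91.4 and 37.6 to 42.7. In the strongest decile the parents differed by less, 1370 of 1385 against 1422 of 1459, with intervals of 98.2 to 99.4 and 96.5 to 98.2.

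**Figure D2:**
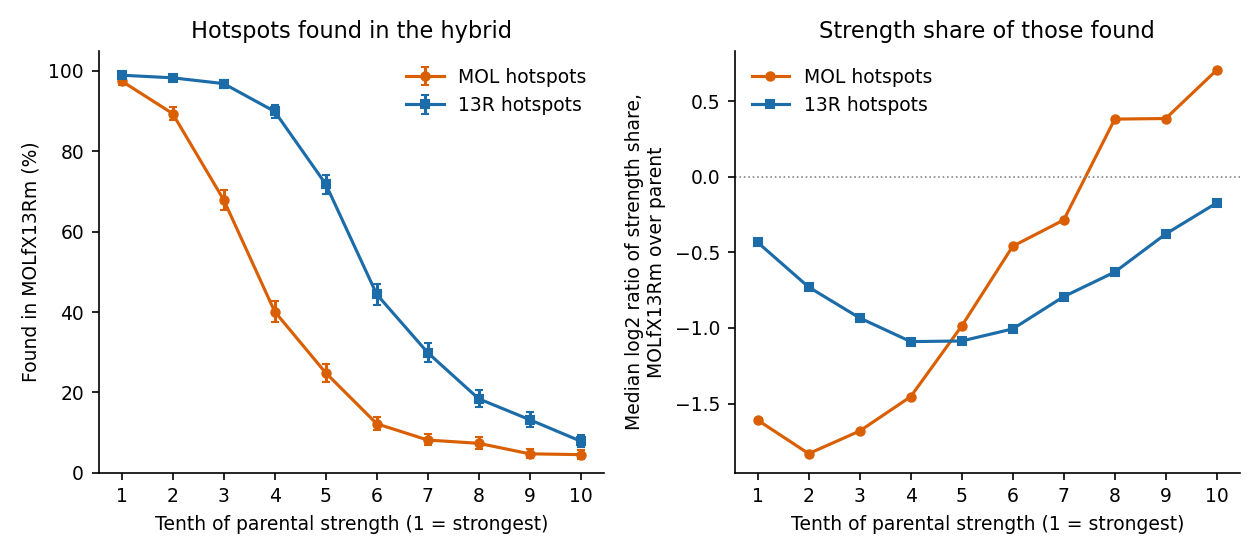
Left, share of MOL (circles) and 13R (squares) hotspots found in MOLfX13Rm (y axis, %) in 10 groups by strength in the parent (x axis, 1 = strongest), with 95% Clopper-Pearson intervals. Right, median log2 ratio of strength share, hybrid over parent, of those found: -1.61 for MOL and -0.43 for 13R in the strongest group.

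Most MOL hotspots that stayed held a smaller share of the summed strength score in the hybrid than in MOL. Each hotspot's share of the summed strength of its list was compared between hybrid and parent as a log2 ratio. The hybrid's sum also holds hotspots of the other parent and of neither, which lowers the share of any parental hotspot. The score is not a count of breaks. In the strongest MOL decile the median ratio was -1.61, a share 0.328 times that in MOL, and 1390 of 1422 were below 0. In the strongest 13R decile it was -0.43, 0.740 times the share in 13R, and 1048 of 1370 were below 0. In the weakest deciles the ratio covers the few hotspots strong enough to be called in the hybrid, 66 of 1458 in MOL, so its rise there is not a measure of all weak hotspots. Of the 1000 strongest MOL hotspots 978 were found, 80 of them among the hybrid's strongest 1000. Of the 1000 strongest 13R hotspots 987 were found, and 446 of them were among the hybrid's strongest 1000. The order of strength was also kept less well for MOL: Spearman's rho between strength in the parent and in the hybrid was 0.468 over 5203 MOL hotspots and 0.755 over 7888 of 13R. These coefficients are across hotspots of the same pair of libraries, and hotspots are not independent replicates.

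All of the 10 strongest MOL hotspots stayed, with ranks from 31 to 4676 in the hybrid. The strongest, 127374 bp from Mex3c on chromosome 18 (73443146 to 73447381), ranked 577 in MOLfX13Rm. Mex3c encodes an RNA-binding ubiquitin ligase. In the crosses with B6 and C3H the same place ranked 62, 118 and 79, and in CASTfXMOLm and PWDfXMOLm it ranked 371 and 182. The MOL hotspot ranked 4, inside the Hippo pathway kinase gene Lats2 on chromosome 14 (57712089 to 57717686), ranked 109 in the hybrid and between 18 and 59 in the 5 other crosses with MOL. The one ranked 8, 9145 bp from the growth factor gene Fgf2 on chromosome 3 (37336290 to 37342375), ranked 31 in MOLfX13Rm, and its log2 ratio of -0.23 was the nearest to 0 of the 10. Hotspots inside Acbd5 and near Sulf1 ranked 221 and 218.

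The others among the 10 fell further down the list. The hotspot inside Map4k3, a kinase gene, on chromosome 17 (80619497 to 80628406) ranked 6 in MOL and 4676 in MOLfX13Rm, with a log2 ratio of -3.07. It ranked 836 in MOLfXB6m and 3365 in CASTfXMOLm and had no match in the 3 other crosses with MOL. Its MOL interval was 8910 bp wide, so a centre can shift there without the intervals parting, and 16 of the 26 lists had an interval that overlapped it against 4 with a matching centre. The hotspot near Alg10b ranked 5 in MOL and 2156 in the hybrid. The one inside Cd80, which encodes a ligand that co-stimulates T cells, ranked 9 in MOL, 2222 in MOLfX13Rm and 79 in PWDfXMOLm. C7, a complement gene, ranked 2 in MOL and 751 in the hybrid, and the hotspot near Adgrl4 ranked 3 and 1038. In 9 of the 10, all but the one near Fgf2, the hotspot ranked lower in MOLfX13Rm than in each cross of MOL with B6, C3H or PWD that had it, and in 5 of the 10 lower than in CASTfXMOLm.

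**Figure D3:**
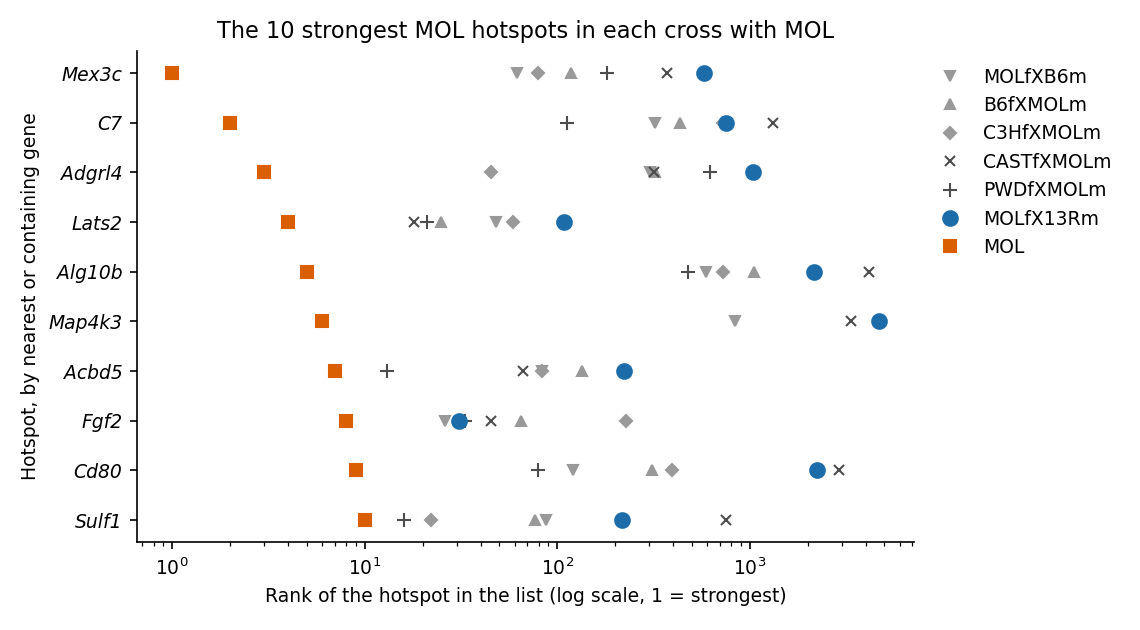
Rank (x axis, log scale, 1 = strongest) of the 10 strongest autosomal MOL hotspots, named by gene (y axis), in MOL (squares), in MOLfX13Rm (large circles) and in the 5 other crosses with MOL (other symbols); a hotspot not found in a list has no symbol for it. In MOLfX13Rm the 10 ranked between 31, near Fgf2, and 4676, inside Map4k3.

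The strongest 13R hotspots kept high ranks outside 2 places. Ubqln1, a ubiquilin gene, ranked 2 in 13R and 9 in MOLfX13Rm; Phf3 ranked 4 and 23; the hotspot near the cathepsin gene Ctso ranked 7 and 12; and the one near Efnb2 ranked 8 and 4. Stau2 and Wdr70 ranked 87 and 152 in the hybrid. The 2 places lay at Sycp3 and P4ha2. Sycp3 encodes a protein of the lateral elements of the synaptonemal complex, and 3 of the 10 strongest 13R hotspots lay inside it on chromosome 10. The strongest of these (88471976 to 88473781) had no match in MOLfX13Rm, and the next ones, ranked 5 and 6, ranked 7785 and 10558. The Sycp3 span (88459587 to 88473236) held 4 hotspots in 13R and 4 in MOL, at best ranks of 1 and 419, and 2 in the hybrid. It held 0.274% of the strength in 13R, 0.0514% in MOL and 0.00673% in MOLfX13Rm. It held no hotspot in any of the 4 other crosses with 13R.

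Among the 1000 strongest MOL hotspots that stayed, 17 held a larger share in the hybrid than in MOL and 961 a smaller one. The largest rise lay inside Efr3b on chromosome 12 (3984120 to 3987863), which ranked 843 in MOL and 28 in MOLfX13Rm, with a log2 ratio of 1.34. It ranked 5 in MOLfXB6m, 32 in B6fXMOLm, 136 in CASTfXMOLm, 847 in C3HfXMOLm and 13280 in PWDfXMOLm. Dcp1a, a gene of mRNA decapping, rose by 1.04, and Ssh3, a cofilin phosphatase gene, by 0.87, from ranks of 894 and 248 to 81 and 21. Gnb4 and Pgap4 rose by 0.62 and 0.61. The largest fall, of -4.13, lay inside Isoc2b on chromosome 7 (4844377 to 4847396), which ranked 754 in MOL and 15475 in the hybrid and between 3511 and 13270 in the 5 other crosses with MOL. The hotspots at Rab21, Ank2, Vit and Dffb had ratios between -3.80 and -3.35. Ank2, which encodes an ankyrin, ranked 282 in MOL, 11929 in MOLfX13Rm and 234 in PWDfXMOLm.

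Few strong MOL hotspots were lost outright. In the strongest MOL decile 37 had no match, and 27 of these overlapped a hybrid interval with a more distant centre, which left 10 with no overlap. In the second decile 155 had no match, and 112 of them overlapped nothing in the hybrid. Among the strongest MOL hotspots without a match, those at Trappc8, Zfc3h1, Scg2, Arl6, Mmp25 and Kmt5b overlapped a hybrid interval, and those at P4ha2, Cacnb2 and Sycp3 did not. The hotspot inside Cacnb2, a calcium channel subunit gene, on chromosome 2 (14977830 to 14978995) ranked 91 in MOL and was called in no other of the 26 lists. It was 1166 bp wide, against a median of 4120 bp in its decile. The hotspot 8943 bp from P4ha2, a collagen prolyl hydroxylase gene, on chromosome 11 (54139857 to 54141366) ranked 41 in MOL and 9 in 13R. It was called in 11 of the 26 lists, and among the crosses with either parent it ranked 95 in B6fXMOLm, 127 in CASTfXMOLm and 89 in PWDfX13Rm. Of the 5 strongest 13R hotspots without a match, those near Fam174a and inside Zfp420 overlapped a hybrid interval.

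The MOL hotspots that stayed here were mostly those found in other crosses with MOL. These comparisons share the MOL list, in which strong hotspots are easier to find in any cross, so the values are given side by side. Of the 5203 found in MOLfX13Rm, 96.9% were found in MOLfXB6m, 92.0% in B6fXMOLm, 95.5% in C3HfXMOLm, 68.8% in CASTfXMOLm and 89.7% in PWDfXMOLm. Over all MOL hotspots the shares were 51.5%, 39.3%, 49.8%, 29.9% and 53.8%. Of the 9382 absent here, the shares were 26.3%, 10%, 24.4%, 8.38% and 33.9%. In crosses with 13R but without MOL, 0.686% of MOL hotspots were found in 13RfXB6m, 0.501% in B6fX13Rm, 0.843% in C3HfX13Rm and 5.51% in PWDfX13Rm. For 13R, 70.8% of all hotspots were found in 13RfXB6m, 58.3% in B6fX13Rm, 76.6% in C3HfX13Rm and 56.7% in PWDfX13Rm, and of the 5962 absent from MOLfX13Rm the shares were 37.1%, 15.0%, 49.0% and 11.3%. MOL hotspots found here were in all 5 other crosses with MOL in 3311 cases (63.6%) and in none of them in 58.

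Many of the lost hotspots of middle strength were present when MOL was crossed with B6, as were most strong MOL hotspots. Of the 9382 MOL hotspots absent from MOLfX13Rm, 2521 (26.9%, 26.0 to 27.8) were in MOLfXB6m or B6fXMOLm. By decile of MOL strength, 133 of 155 absent hotspots in the second (85.8%), 396 of 468 in the third (84.6%), 595 of 873 in the fourth (68.2%) and 525 of 1096 in the fifth (47.9%) were in those crosses. In the weakest decile 64 of 1392 were (4.60%). Over all MOL hotspots 51.5% were in MOLfXB6m and 39.3% in B6fXMOLm. Shares of all MOL hotspots by decile were not computed for these crosses, and being in either list was enough to count. The absent hotspots found in no other cross with MOL numbered 4668 (49.8%), and 153 were in all 5.

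A 13R hotspot at the same place went with a MOL hotspot staying. Of the 115 MOL hotspots at a 13R hotspot, 103 (89.6%, 82.5 to 94.5) were found in the hybrid, against 35.7% of all MOL hotspots. Their median percentile in MOL was 51.7, near the middle of the list, and the median log2 ratio of strength share was -0.15. The 125 hybrid hotspots at both parents had a median percentile of 55.2 in MOL, 55.6 in 13R and 67.5 in the hybrid. A single 13R hotspot is enough for a match at such a place, so these counts do not show which parent's hotspot was found. The strongest of them lay inside Plekhm3 on chromosome 1 (64875543 to 64880316) and ranked 43 in MOLfX13Rm, 1759 in MOL and 9234 in 13R. The next, 11454 bp from Socs1, which encodes an inhibitor of cytokine signalling, ranked 133 in the hybrid, 12086 in MOL and 74 in 13R. Ino80c, Spice1 and Col24a1 ranked 163, 194 and 278.

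By matching of centres, a 13R hotspot close by but not at the same place did not go with a higher share of MOL hotspots found; by any overlap it did. Of the 340 MOL hotspots with a 13R hotspot 400 to 2000 bp away, 91 were found (26.8%, 22.1 to 31.8), while 257 of them (75.6%, 70.7 to 80.1) overlapped some hybrid interval, against 38.2% of all MOL hotspots. Such an interval can be that of the 13R hotspot beside it, so overlap does not show which hotspot was found. At 2000 to 10000 bp the share was 34.8%, at 10000 to 50000 bp 35.2%, at 50000 to 200000 bp 35.9% and beyond that 35.0%. MOL hotspots at a PWD hotspot were found in 666 of 1750 cases (38.1%, 35.8 to 40.4) and those at a CAST hotspot in 160 of 380 (42.1%, 37.1 to 47.2), with median percentiles in MOL of 51.9 and 55.0. MOL hotspots at a B6 hotspot were found in 44 of 136 cases (32.4%, 24.6 to 40.9). Those at a C3H hotspot were found in 33 of 106 (31.1%, 22.5 to 40.9). The median percentiles in MOL of these 2 sets were 41.1 and 46.4. Those at a site of the Prdm9 knockout, where breaks form without PRDM9, were found in 33 of 159 cases (20.8%, 14.7 to 27.9), and their median percentile in MOL was lower, at 33.3. The part of strength in these shares was not tested.

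Position in the genome went with smaller differences. MOL hotspots inside a gene were found in 36.0% of cases and those outside in 35.3%, with intervals of 35.0 to 37.1 and 34.2 to 36.4. Within 1000 bp of a gene end the share was 31.9% (27.7 to 36.3) and inside genes longer than 1 Mb it was 39.8% (34.6 to 45.1), and both intervals held the overall 35.7%. The first 10 Mb from the centromere side had 38.3% (35.5 to 41.2) and the distal 10 Mb 35.1%. By chromosome the share ran from 29.6% on chromosome 17 (25.9 to 33.5) to 41.2% on chromosome 19 (36.4 to 46.1). For 13R it ran from 52.0% on chromosome 9 to 63.3% on chromosome 16. The 13R part of single-parent hotspots lay between 57.5% on chromosome 13 and 64.7% on chromosome 16, above 50% on all 19 autosomes. The share at neither parent was lowest on chromosome 2, at 12.4%, and highest on chromosome 17, at 22.8% (19.5 to 26.4).

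This cross was chosen for study because MOL was already known from these lists to keep the most beside 13R, so its place among the partners of 13R is a description and supports nothing. To compare crosses, the strongest 5000 hotspots of each parent were looked for in each cross list cut to its strongest 9748, the length of the shortest. MOLfX13Rm held 50.2% (48.8 to 51.6) of those of MOL. PWDfX13Rm held 25.5% of those of PWD (24.3 to 26.8), C3HfX13Rm 36.1% of C3H (34.8 to 37.5), B6fX13Rm 30.8% of B6 (29.5 to 32.1) and 13RfXB6m 31.3% of B6 (30.0 to 32.6). In the whole lists the values were 80.0% for MOL, 63.0% for C3H, 30.8% for B6 in B6fX13Rm, 46.7% for B6 in 13RfXB6m and 37.8% for PWD. For 13R the share at equal length was 85.0% (84.0 to 86.0) in MOLfX13Rm, 92.7% in PWDfX13Rm, 98.3% in C3HfX13Rm, 99.3% in B6fX13Rm and 99.4% in 13RfXB6m.

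**Figure D4:**
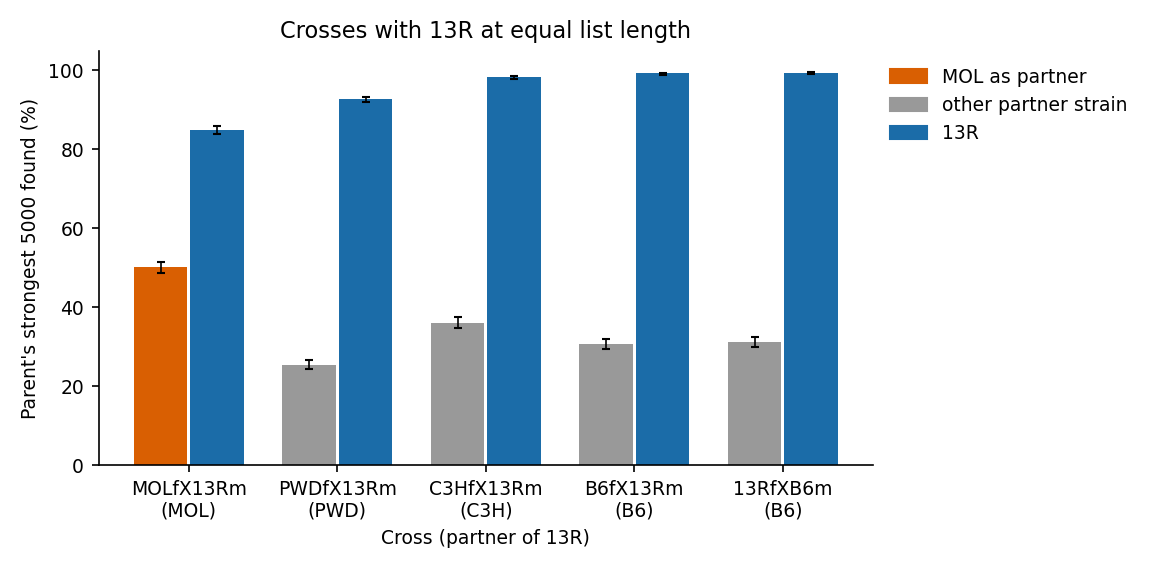
Share of the strongest 5000 hotspots of each parent (y axis, %) found in the strongest 9748 hotspots of the 5 crosses with 13R (x axis, partner strain in brackets), with 95% Clopper-Pearson intervals. MOL had the highest bar of the partners, at 50.2%, and 13R its lowest in the same cross, at 85.0%.

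The strength kept by the partner's hotspots describes the same property by which the cross was chosen. Among the 1000 strongest MOL hotspots the median log2 ratio of strength share in MOLfX13Rm was -1.60, over the 978 found. It was -2.22 for C3H in C3HfX13Rm, -2.11 and -2.28 for B6 and -2.32 for PWD in PWDfX13Rm. At equal length it was -1.37 for MOL and between -2.11 and -1.95 for the others. These medians cover only the hotspots found, and their number differs between partners. At equal length it was 946 for MOL, 848 for C3H, 787 and 772 for B6 and 557 for PWD, so the medians are not like for like. For the 1000 strongest 13R hotspots it was -0.41 in MOLfX13Rm, -0.20 in PWDfX13Rm, 0.17 in C3HfX13Rm and 0.40 and 0.33 in the crosses with B6. The 13R part of single-parent strength was 67.2% in MOLfX13Rm, 81.9% in PWDfX13Rm, 84.3% in C3HfX13Rm and 90.8% and 89.1% in the crosses with B6. These crosses share the 13R list, and each has 1 library.

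Seen from MOL, 13R was one of its harder partners. At equal length, 50.2% of the strongest 5000 MOL hotspots were found in MOLfX13Rm, against 77.9% in MOLfXB6m, 74.5% in B6fXMOLm, 75.2% in C3HfXMOLm, 77.1% in PWDfXMOLm and 42.2% in CASTfXMOLm. The median log2 ratio of its 1000 strongest hotspots in the whole lists was -0.93 in MOLfXB6m, -0.95 in B6fXMOLm, -0.92 in C3HfXMOLm, -0.79 in PWDfXMOLm and -1.71 in CASTfXMOLm, beside -1.60 here. CAST was the other strain that left MOL with the smaller part: MOL had 33.2% of the single-parent hotspots of CASTfXMOLm by number.

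Some of the hybrid's strongest MOL hotspots were weak in MOL itself. The 164 hotspots at MOL alone among the hybrid's strongest 1000 had a median rank of 1081 in MOL, and 79 of them were in the strongest 1000 of MOL. For the 633 at 13R alone the median rank in 13R was 528, and 439 were in its strongest 1000. The strongest hybrid hotspot at MOL alone, 142599 bp from the insulin gene Ins1 on chromosome 19 (52405260 to 52409969), ranked 7 in MOLfX13Rm and 6598 in MOL. It ranked 3 in MOLfXB6m, 6 in B6fXMOLm, 11 in C3HfXMOLm, 25 in CASTfXMOLm and 2 in PWDfXMOLm, and was not called in 13R or its other crosses. A hotspot inside Grik1, a glutamate receptor gene, on chromosome 16 (88031154 to 88034959) ranked 32 in the hybrid and 5411 in MOL. It ranked 4, 12, 4 and 38 in the crosses of MOL with B6, C3H and CAST, and 8061 in PWDfXMOLm.

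Counted after these values were seen, 31 of the 164 were in the weaker 50% of the MOL list. Of these 31, 30 were in the strongest 1000 of at least 3 of the other crosses with MOL: 29 in MOLfXB6m, 30 in B6fXMOLm, 28 in C3HfXMOLm, 17 in CASTfXMOLm and 13 in PWDfXMOLm. On the other side, 30 of the 633 at 13R alone were in the weaker 50% of the 13R list. Of these, 21 were in the strongest 1000 of PWDfX13Rm and 6 in that of C3HfX13Rm, and none in those of 13RfXB6m and B6fX13Rm, where 14 and 8 of them were called. The same counts were not made for all of the 164 or all of the 633. They therefore do not show whether hotspots weak in the parent differ from the rest in this.

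Most hotspots at neither parent recurred in other crosses with MOL or 13R. The 2640 held 17.4% of the hybrid's strength for 16.9% of its hotspots, and 2313 of them (87.6%) overlapped no interval of either parent. In other crosses with MOL but not with 13R, 1167 were found (44.2%, 42.3 to 46.1), and in other crosses with 13R but not with MOL, 789 (29.9%, 28.1 to 31.7). Both kinds of cross held 206 (7.8%), and 478 (18.1%, 16.7 to 19.6) were in no other cross with either strain. MOLfXB6m or B6fXMOLm held 1323 (50.1%, 48.2 to 52.0), and 1072 were in all 3 crosses of MOL with B6 or C3H. In MOLfXB6m itself were 49.0% of the hotspots at neither parent, 97.8% of those at MOL alone and 0.696% of those at 13R alone. Inbred lists held few of them: 5.87% were in PWD, 2.39% in CAST, 0.833% in B6, 0.455% in C3H and 0.947% in the Prdm9 knockout. Shares were also small in the single-parent classes, except for MOL alone in PWD. Of hotspots at MOL alone, 12.8% were in PWD, 3.15% in CAST, 0.807% in B6, 0.630% in C3H and 0.610% in the knockout. For 13R alone these shares were 0.683%, 0.515%, 1.37%, 0.824% and 0.734%.

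The hotspots at neither parent that recurred with 13R were largely those of a single other cross. Of those 789, 711 (90.1%, 87.8 to 92.1) were in PWDfX13Rm and 198 (25.1%) in C3HfX13Rm. Over all 2640, 34.5% were in PWDfX13Rm, 8.03% in C3HfX13Rm, 3.22% in 13RfXB6m and 2.46% in B6fX13Rm. For hotspots at 13R alone these shares were 91.3%, 97.6%, 96.5% and 91.4%, and for those at MOL alone 7.76%, 0.394%, 0.276% and 0.098%. The median percentile of the 789 in the hybrid was 58.3, and 86 were in its strongest 1000. Those that recurred with MOL had 43.9 and 63. The strongest of all lay 35910 bp from Tmem247 on chromosome 17 (86879387 to 86883490) and ranked 2 in MOLfX13Rm, 347 in PWDfX13Rm and 256 in C3HfX13Rm. The next, inside Prkcz, an atypical protein kinase C gene, on chromosome 4 (155298523 to 155302634), ranked 3 in the hybrid and 22 in PWDfX13Rm. A hotspot inside Pms1, a mismatch repair gene, on chromosome 1 (53271592 to 53275607) ranked 5 and 8, and no other list held it. Pip5k1b, a lipid kinase gene, ranked 15 in the hybrid, 56 in PWDfX13Rm and 85 in C3HfX13Rm. The fifth, 507295 bp from the netrin receptor gene Dcc, ranked 16 and was in PWDfX13Rm and in all 5 other crosses with MOL, at ranks from 2 in B6fXMOLm to 7453 in PWDfXMOLm.

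**Figure D5:**
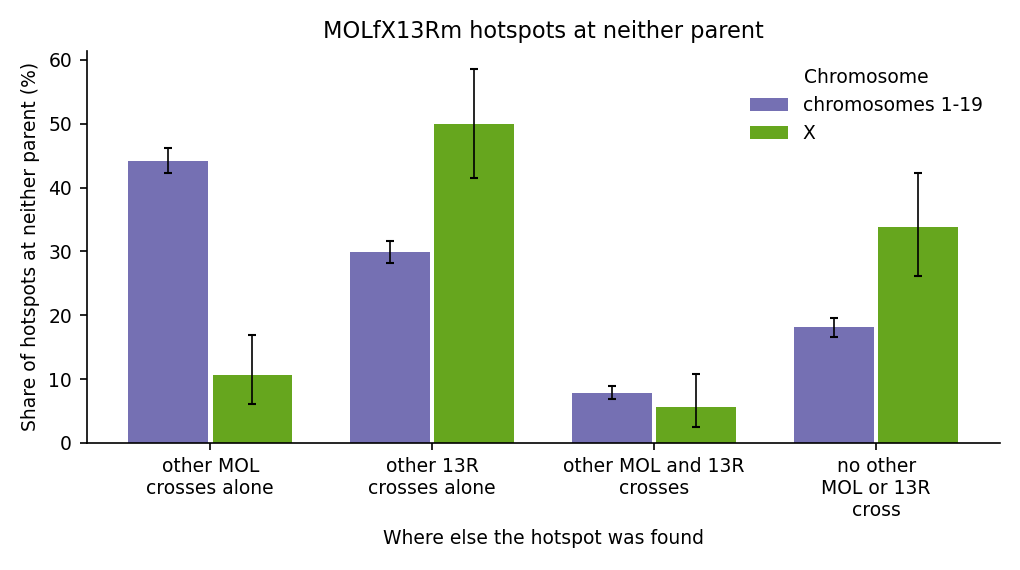
Share of MOLfX13Rm hotspots at neither parent (y axis, %) by where else they were found (x axis), on the autosomes and on X, with 95% Clopper-Pearson intervals. On the autosomes 44.2% were in other crosses with MOL alone and 29.9% in other crosses with 13R alone. On X these shares were 10.6% and 50%, but of the other crosses compared only MOLfXB6m carried the X of MOL.

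On the X chromosome, which in this hybrid came from MOL, hotspots of both parents were found at overall rates close to the autosomes, with differences in some groups by strength. The X held 988 hybrid hotspots. Of the 1056 MOL hotspots of X, 373 were found (35.3%, 32.4 to 38.3), and of the 889 of 13R, 482 (54.2%, 50.9 to 57.5). With a reciprocal overlap of 50% the MOL share on X was 22.3%. The hybrid's X hotspots comprised 473 at 13R alone, 364 at MOL alone, 9 at both and 142 at neither (14.4%, 12.2 to 16.7). So 56.5% (53.1 to 59.9) of the single-parent hotspots of X, and 68.8% of their strength, lay at hotspots of 13R, the strain that gave no X. In the strongest 20% of X hotspots of each parent, 155 of 178 of 13R were found (87.1%, 81.2 to 91.6), against 98.6% (98.1 to 99.0) on the autosomes. For MOL 203 of 212 were found (95.8%, 92.1 to 98.0), against 93.4% (92.5 to 94.3). In the next 20% of 13R the share was 86.0% on X (80.0 to 90.7) and 93.4% on the autosomes (92.4 to 94.3). In the middle 20% of MOL 11 of 211 were found on X (5.21%, 2.63 to 9.14), against 18.5% on the autosomes (17.2 to 20). The groups were ranked within X and within the autosomes separately, so they are not matched for strength.

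The X hotspots at neither parent recurred in other lists than the autosomal ones did. Of the 142, 15 were in other crosses with MOL alone (10.6%, 6.03 to 16.8) and 71 in other crosses with 13R alone (50%; 41.5 to 58.5), and 48 were in no other cross with either strain. PWDfX13Rm held 72 of them (50.7%), C3HfX13Rm 13, 13RfXB6m 6 and B6fX13Rm 4. Among the other crosses compared, only MOLfXB6m had a MOL mother and so the X of MOL. It held 16 of the 142 (11.3%, 6.58 to 17.7), against 49.0% of the autosomal hotspots at neither parent. B6fXMOLm held 6, C3HfXMOLm 10, CASTfXMOLm 4 and PWDfXMOLm 7. These crosses, and the other crosses with 13R, carried the X of another strain, so shares on X and on the autosomes are not like for like. The 71 held 8.57% of the strength of the hybrid's X, and the 15 held 0.322%.

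Across gene families, most shares of MOL hotspots found were near that of all MOL hotspots, with few hotspots in each. Over all hotspots the shares found were 35.7% for MOL and 57% for 13R. Inside 46 placed genes of meiotic prophase there were 16 MOL hotspots, of which 7 were found (43.8%, 19.8 to 70.1), and 24 of 13R, of which 13 were found (54.2%, 32.8 to 74.4). The MOL hotspot inside Mei1, a gene needed for break formation, ranked 163 in MOL and 3241 in the hybrid, and the one inside Rnf212, a crossover gene, ranked 940 and 3090. Of 62 MOL hotspots inside glutamate receptor genes 23 were found; the strongest, inside Grid1, ranked 385 in MOL and 244 in MOLfX13Rm. Another in Grik1 ranked 394 and 5508. Contactin, neurexin and neuroligin genes, which act in cell adhesion at synapses, had 24 of 56 found, potassium channel genes 17 of 66 (25.8%, 15.8 to 38.0), and calcium channel genes 10 of 37. Zinc finger genes had 35 of 102 found, cadherin genes 12 of 32 and protocadherin genes 11 of 26. The strongest hotspot of a zinc finger gene, inside Zfp106, ranked 63 in MOL and 1022 in the hybrid. Olfactory receptor genes had 6 of 18 found, vomeronasal receptor genes 4 of 14 and GABA receptor genes 4 of 10. No MOL hotspot lay inside a Hox gene.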

How the data were processed

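Hotspots were measured by DMC1 SSDS in 1 testis library per genotype, and samples were grouped by the strains of mother and father that the labels give. Each deposited list holds the position of every hotspot and a strength score; the sources used here do not give the scaling or filters of that score, and 104 values in the 26 lists lie below 0. The authors' score was therefore used within a list, as a rank, a percentile or a share of summed strength. CASAVA 1.8, MACS2 2.0.10 and the build mm10 are named in the submitters' processing notes. Starts were read as counted from 0 and are printed counted from 1. The 5 input samples were not used. Values at CAST hotspots assume that the CAST list is rightly labelled, since the series text reports that a wrongly labelled CAST cross was removed.

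Matching, shares and exact intervals were computed with Python 3.11.15, NumPy 2.4.6, pandas 2.3.3 and SciPy 1.17.1 and drawn with matplotlib 3.10.9. Ranks and deciles are over the autosomal hotspots of a list. The matching was tested on simulated lists. Genes and promoter sequences were taken from RefSeq tables of GRCm38.p6, the primary assembly of which is that of mm10. A genome sequence was not used here, so sequence motifs were not searched. No test was made, since each genotype has 1 library.

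The members, gene lists and rules were chosen with earlier results of these data known. The rule for named hotspots took the 10 strongest of each parent, the 10 strongest of MOL and 5 of 13R without a match, the 5 strongest of each origin class, the 5 largest rises and falls among the 1000 strongest MOL hotspots, and up to 3 per gene family. A hotspot under this rule is left out and not reported here. The Grik1 hotspot named last, Zfp106, Mei1, Rnf212 and Grid1 come from the family rule, and the sequences were chosen as the strongest hybrid hotspot of each class with its centre in the promoter window of a protein-coding gene, leaving out symbols that start with Gm and chromosome 18. The alternatives were centres under 200 or 1000 bp apart, any overlap, reciprocal overlap of 50% and lists limited to their strongest 5000 or 50%.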

Additional observations from a re-analysis of the deposited data

How the results depend on the processing

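All 6 alternatives left the 13R part of single-parent hotspots above 50%, by number and by strength, and left 13R hotspots found more often than MOL hotspots on the autosomes and on X. The sizes moved, because a stricter match or a shorter list changes what can be found. With centres under 200 bp apart, the 13R part by number was 61.5%, 23.0% were at neither parent, 32.1% of MOL hotspots were found and 53.5% of 13R hotspots were found. Under that setting 25.9% of the absent MOL hotspots were in crosses of MOL with B6, 46.2% of those at neither parent were, on X 31.6% of MOL hotspots were found and 50.3% of 13R hotspots of X were. With centres under 1000 bp apart, 15.5% were at neither parent, 36.9% of MOL hotspots were found and 58.0% of 13R hotspots were found. With any overlap of the intervals, the 13R part by strength was 66.3%, 14.8% were at neither parent, 38.2% of MOL hotspots were found and 58.5% of 13R hotspots were found. Under that setting 28.2% of the absent MOL hotspots were in crosses of MOL with B6 and on X 39.6% of MOL hotspots were found. With a reciprocal overlap of 50%, the 13R part by number was 68.5%, the 13R part by strength was 70.7%, 28.9% were at neither parent and 24.8% of MOL hotspots were found. Under that setting 55.3% of 13R hotspots were found, 28.0% of the absent MOL hotspots were in crosses of MOL with B6, 64.8% of those at neither parent were, on X 22.3% of MOL hotspots were found and 50.7% of 13R hotspots of X were. With the strongest 5000 hotspots of each list, the 13R part by number was 71.7%, the 13R part by strength was 75.1%, 26.1% were at neither parent and 21.0% of MOL hotspots were found. Under that setting 53.2% of 13R hotspots were found, 29.5% of the absent MOL hotspots were in crosses of MOL with B6 and 46.0% of those at neither parent were. With the strongest 50% of each list, the 13R part by number was 66.4%, the 13R part by strength was 71.2%, 21.6% were at neither parent and 28.0% of MOL hotspots were found. Under that setting 59.1% of 13R hotspots were found, 27.9% of the absent MOL hotspots were in crosses of MOL with B6, 45.8% of those at neither parent were and on X 39.4% of MOL hotspots were found. No paired analysis was possible because each genotype has 1 library and the values come from no test. For the same reason no replicate could be left out. Of MOL hotspots, 132 were matched at 300 to 400 bp and 54 were unmatched with the nearest hybrid centre 400 to 500 bp away. The read depth is unknown, so a hotspot that was not called may still hold breaks.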

Other observations

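Sycp3 was a place of strong hotspots in 13R that ranked 7785 and 10558 in MOLfX13Rm and held none in the 4 other crosses with 13R. A hotspot overlapped the gene in 15 of the 26 lists. In the Prdm9 knockout it held 4, with a best rank of 6158, in B6 4 with a best rank of 10415, in PWD 4 with 3877 and in CAST 3 with 4283. C3H had none. Their part in the strength of 13R was 0.274%, against 0.0256% in PWD and 0.0171% in CAST. Why the 13R list stands apart there was not tested, and the place was named because the strongest 13R hotspot lies in it.

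On the Y chromosome, which a male has from its father, MOLfX13Rm held 12 hotspots, 13R 13 and MOL 127. In the crosses with a MOL father the number was 80 in B6fXMOLm, 104 in C3HfXMOLm, 100 in CASTfXMOLm and 96 in PWDfXMOLm, while MOLfXB6m, with a B6 father, held 12 and B6 itself 152. These counts were looked at after the other values were seen.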
